A study of Mus musculus with 8 samples.

Results

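The actin isoforms, calponins and transgelins were followed as 10 genes chosen by symbol: the sarcomeric actins *Actc1* and *Acta1*, the smooth muscle actins *Acta2* and *Actg2*, the cytoplasmic actins *Actb* and *Actg1*, the calponins *Cnn1* and *Cnn2*, and the transgelins *Tagln* and *Tagln2*. All 10 were found among the 40690 distinct genes of the count table, and all 10 were among the 13622 genes left after the filter on low counts. The libraries hold polyadenylated RNA of whole ventricles at postnatal day 1, from 4 NAE1CKO mice and 4 littermate controls (CTL). NAE1CKO mice carry the NAE1Flox allele and αMHCCre, so that *Nae1*, a subunit of the enzyme that activates the ubiquitin-like protein NEDD8, is deleted in cardiomyocytes (CMs), while ventricular cells without αMHCCre keep the gene. CTL mice are labelled as wildtype, and the labels do not say which of them carried αMHCCre or NAE1Flox alone. Both groups are in the C57BL/6J background.

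Actins are the subunits of thin filaments in sarcomeres and of stress fibers and cortical filaments elsewhere in the cell. CMs use cardiac and skeletal muscle actin in their sarcomeres, fetal CMs and smooth muscle cells also use *Acta2*, and nearly all cells use cytoplasmic actin. Calponins and transgelins carry a calponin homology domain and bind along actin filaments. Many genes of both kinds are known targets of serum response factor (SRF), which binds the CArG box and works with the coactivators MRTF and myocardin. MRTF itself is held back by free actin monomers.

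The coding sequences of the actin isoforms are much alike, so a read is assigned to one isoform by scattered base differences and by the ends of the transcript. The first 60 coding bases show this for the isoforms that carry nearly all actin reads and for the close paralog of each. They were read from GENCODE M21 transcripts on GRCm38. In *Acta1* and *Acta2*, capitals mark bases that differ from *Actc1*, and in *Actg1* they mark bases that differ from *Actb*.
Actc1 (chr2:114051972-114052031, minus strand): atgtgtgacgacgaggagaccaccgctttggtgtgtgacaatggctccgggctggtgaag
Acta1 (chr8:123893638-123893697, minus strand): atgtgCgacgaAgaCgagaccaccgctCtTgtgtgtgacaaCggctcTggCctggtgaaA
Acta2 (chr19:34252494-34252553, minus strand): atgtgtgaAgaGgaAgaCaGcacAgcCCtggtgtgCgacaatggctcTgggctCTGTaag
Actb (chr5:142905627-142905686, minus strand): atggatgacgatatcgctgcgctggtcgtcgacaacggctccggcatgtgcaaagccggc
Actg1 (chr11:120348032-120348091, minus strand): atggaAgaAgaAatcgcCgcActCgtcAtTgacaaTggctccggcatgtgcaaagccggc
In this stretch *Acta1* differed from *Actc1* at 9 bases and *Acta2* from *Actc1* at 14, and *Actg1* differed from *Actb* at 9. Over the whole coding sequence, identity was 86.2% between *Actc1* and *Acta1*, 82.5% between *Actc1* and *Acta2*, and 88.7% between *Actb* and *Actg1*.

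How far each gene can be told from the rest of the transcriptome was measured as the percent of its 50-base words found in the transcripts of no other gene, on either strand. Every such word was particular to the gene in *Actc1*, *Actg2*, *Cnn1* and *Cnn2*. The percent was 99.6% for *Acta2*, 99.2% for *Tagln2*, 97.8% for *Acta1* and 85.8% for *Actb*. *Actg1* stood apart with 43.3%, since 51.1% of its words were shared with the pseudogene *Gm12715*. *Tagln* had 51.7%. Its words were shared with an antisense gene, *Gm48529* (44.5%, not analysed here), and *Tagln* overlaps *Pcsk7*, which lies on the opposite strand. No source used here gives the strand setting of the counting, and *Tagln* reads from the shared stretch cannot be told apart from reads of these partners. *Pcsk7*, a proprotein convertase, averaged 36.3 ± 1.71 CPM in NAE1CKO and 40.9 ± 1.65 CPM in CTL (SD, n = 4 each), so it did not move with *Tagln*. Counts of *Actg1* and *Tagln* are therefore less certain than those of the other genes.

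Total counts ranged from 16304420 to 18593509 in NAE1CKO and from 13932821 to 18056322 in CTL, and expression is given as CPM, the counts of a gene relative to the TMM-scaled total of its library. The targeted gene *Nae1* had 10.6 to 13.2 CPM in the NAE1CKO libraries and 22.3 to 24.1 CPM in the CTL libraries. WT-453-5 gave 12.8% of its counts to the noncoding gene *Gm42418*, which was singled out on its values, and the other 7 libraries gave it 3.09% to 4.62%. CM markers were abundant in both groups, as the ventricle label asks, with a summed level of 49694 to 53376 CPM in NAE1CKO and 64347 to 77465 CPM in CTL, and 6 of 10 were lower in NAE1CKO. Of 11 skeletal muscle markers, *Myh4*, *Tnnc2* and *Myod1* had no count and 4 passed the filter.

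In NAE1CKO ventricles, 7 of the 10 genes were higher than in CTL at an adjusted p under 0.05 and 0 were lower, while 18.6% of all genes tested were higher and 17.6% lower. All 10 fitted log2 fold changes were above 0. The test was edgeR's quasi-likelihood test with Benjamini-Hochberg adjustment over all 13622 genes, and every adjusted p here is from it. The 3 genes that did not pass were *Actc1*, *Acta1* and *Actg1*. The largest changes were in *Cnn1* (5.79-fold) and *Tagln* (4.62-fold), followed by *Acta2* (2.84-fold) and *Cnn2* (2.33-fold). With *Actg2* (1.51-fold), these 5 were higher with a fold above 1.5, against 7.31% of all genes (5.56% were lower past that fold). For 5 genes, *Acta2*, *Actb*, *Cnn1*, *Cnn2* and *Tagln*, each NAE1CKO library was above each CTL library, which held for 18.6% of all genes, and the groups were apart in either direction for 36.5%. The median log2 fold change was 0.51 over the 10 genes and −0.00 over all genes tested.

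**Figure D1:**
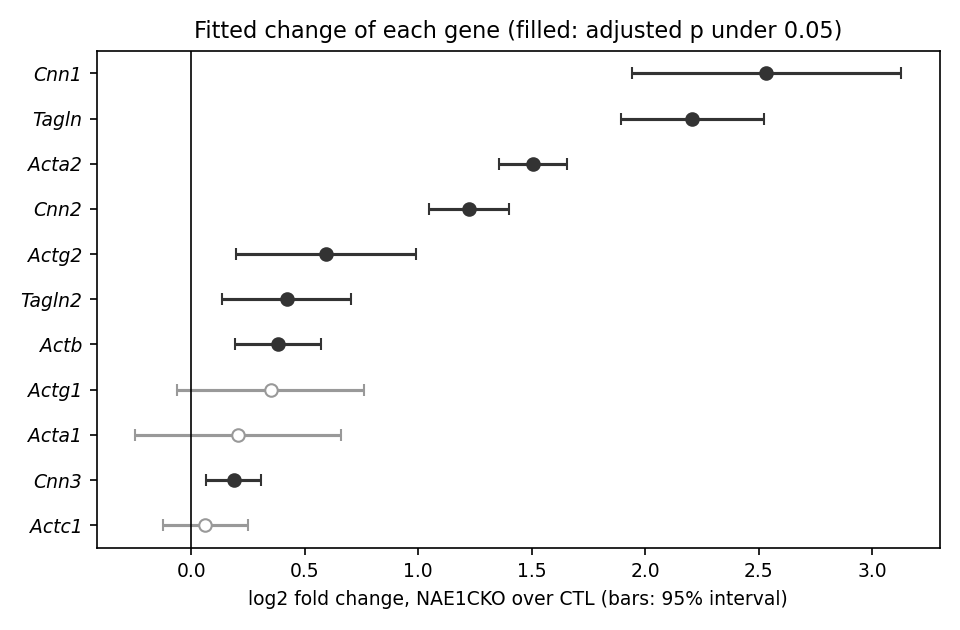
Fitted log2 fold change of each gene, NAE1CKO over CTL, with its 95% interval, filled where the edgeR adjusted p was under 0.05; *Cnn3* is added as the remaining calponin. *Cnn1* and *Tagln* lie above 2 on the log2 scale, *Acta2* and *Cnn2* between 1 and 2, and the intervals of *Actc1*, *Acta1* and *Actg1* include 0.

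Among the smooth muscle actins, *Acta2* (ENSMUSG00000035783, chromosome 19, 34241090 to 34255590, minus strand, GRCm38) encodes smooth muscle α-actin. Among NAE1CKO libraries it had 4993 CPM in KO-443-3, 5361 in KO-443-5, 4416 in KO-453-6 and 4835 in KO-453-7, against 1783 CPM in WT-443-7, 1821 in WT-443-8, 1653 in WT-453-3 and 1641 in WT-453-5 among CTL libraries. The libraries of each further gene are given in the same order. The lowest NAE1CKO library was far above the highest CTL library, and the CTL libraries lay close together. The log2 fold change of *Acta2* was 1.51 (standard error 0.069, edgeR adjusted p = 5.91e-08), with a 95% interval of the fold from 2.56 to 3.15. It was called in each of 24 alternative settings.

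*Actg2* (chromosome 6, 83512905 to 83536265), the enteric smooth muscle γ-actin, was near the lower end of the measured range with 75 to 190 counts per library. It had 8.51, 8.24, 11.4 and 6.06 CPM in NAE1CKO, against 5.04, 4.98, 6.62 and 6.02 CPM in CTL. KO-453-6 was the highest and KO-453-7 lay among the CTL libraries, so the groups overlapped. The log2 fold change was 0.59 (standard error 0.18, edgeR adjusted p = 0.0231). The call was lost without KO-453-6 (0.43, edgeR adjusted p = 0.0645), without WT-443-7 (0.54, edgeR adjusted p = 0.0622) and without WT-443-8 (0.53, edgeR adjusted p = 0.0656).

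**Figure D2:**
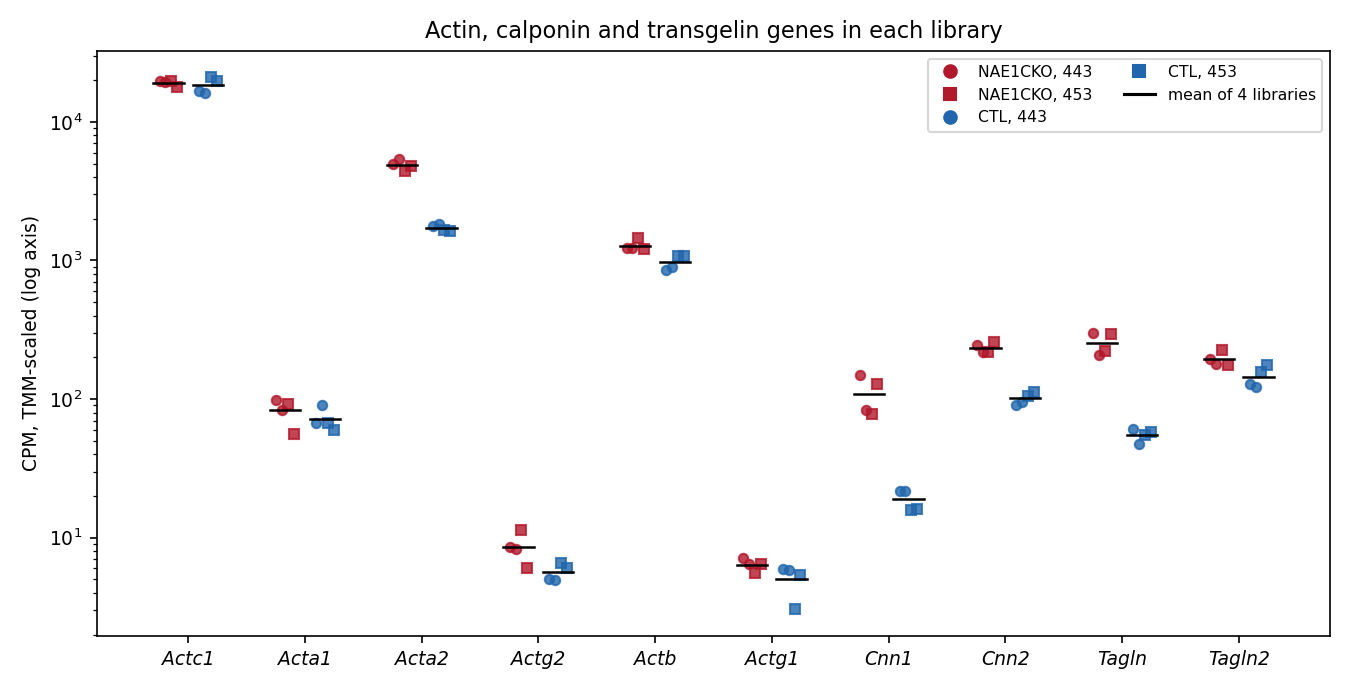
CPM of each gene in each library on a log axis, NAE1CKO left of CTL, with circles for the KO-443 and WT-443 libraries, squares for the KO-453 and WT-453 libraries, and a line at the mean of 4. The groups are apart for *Acta2*, *Actb*, *Cnn1*, *Cnn2* and *Tagln* and overlap for the other 5 genes.

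The sarcomeric actins did not pass the test. *Actc1* (ENSMUSG00000068614, chromosome 2, 114047282 to 114053548), the cardiac α-actin of the CM thin filament, had 19803, 19274, 19679 and 17785 CPM in NAE1CKO, against 16538, 16100, 20919 and 19745 CPM in CTL. The CTL libraries spanned the NAE1CKO libraries, with the WT-443 libraries below them and WT-453-3 above. Its log2 fold change was 0.06 (standard error 0.085, edgeR adjusted p = 0.604), and the 95% interval of the fold ran from 0.918 to 1.19. Of 10 CM markers, 6 were lower and 4 did not pass. Among the lower ones, the myosin heavy chain *Myh6* had a log2 fold change of −0.63 (17016 CPM in NAE1CKO and 26420 CPM in CTL). The troponin *Tnni3* had −0.64 (1323 CPM in NAE1CKO and 2065 CPM in CTL). The 4 that did not pass were *Actn2* (0.09), *Tnnt2* (−0.11), *Tnnc1* (−0.15) and *Ttn* (−0.35). In these bulk libraries, fewer cells of a type and less RNA per cell cannot be told apart.

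The 2 numbers in the library titles gave *Actc1* opposite directions. It averaged 19539 CPM in the KO-443 libraries and 16319 CPM in the WT-443 libraries, but 18732 CPM in the KO-453 libraries and 20332 CPM in the WT-453 libraries. The groups did not overlap within either number. With only 2 libraries a group in each number, such a gap arises easily by chance. It was also seen within both numbers for *Acta2*, *Actb*, *Actg1*, *Cnn1*, *Cnn2* and *Tagln*. The share of all genes with such gaps is not given here, so these gaps are a description only. Fitted alone, the KO-443 and WT-443 libraries gave a log2 fold change of 0.26 (edgeR adjusted p = 0.00509), and those numbered KO-453 or WT-453 gave −0.12 (edgeR adjusted p = 0.443). The difference between these effects was −0.38 on the log2 scale and did not pass its own test (edgeR interaction term, adjusted p = 0.335). The labels do not say what the numbers stand for. For the other 9 genes the direction was the same within both numbers.

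*Acta1* (chromosome 8, 123891769 to 123894751), the skeletal α-actin that CMs also place in their sarcomeres, had 99.1, 84.1, 92.4 and 55.6 CPM in NAE1CKO, against 67.7, 91.3, 67.4 and 60.3 CPM in CTL. KO-453-7 was the lowest of all 8 libraries and KO-443-3 the highest, so the NAE1CKO libraries enclosed the CTL libraries. The log2 fold change was 0.21 (standard error 0.20, edgeR adjusted p = 0.455), and its 95% interval ran from −0.25 to 0.66. A change of 1.5-fold lies inside that interval and was not excluded.

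Of the cytoplasmic actins, *Actb* (chromosome 5, 142903115 to 142906754), the β-actin of nearly every cell, had 1223, 1222, 1442 and 1207 CPM in NAE1CKO, against 857, 903, 1080 and 1070 CPM in CTL. The NAE1CKO libraries were all higher, with KO-453-6 well above the other 3 and the CTL libraries split by their title numbers. It rose by 0.38 on the log2 scale (standard error 0.087, edgeR adjusted p = 0.00471), a fold of 1.30. *Actb* is often used as a reference gene, and in these libraries it was not level between the groups. *Actg1* (chromosome 11, 120345690 to 120348542), the γ-actin, had 54 to 132 counts per library and 7.11, 6.51, 5.53 and 6.45 CPM in NAE1CKO, against 5.92, 5.84, 3.06 and 5.38 CPM in CTL. WT-453-3 was the lowest, and KO-453-6 lay below WT-443-7 and WT-443-8. Its log2 fold change of 0.35 (standard error 0.19, edgeR adjusted p = 0.171) did not pass. The part that shared sequence plays in the low level of *Actg1* was not tested.

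The calponins both rose. *Cnn1* (ENSMUSG00000001349, chromosome 9, 22099216 to 22109630, plus strand), the basic calponin of differentiated smooth muscle, had 149, 83.5, 78.1 and 128 CPM in NAE1CKO, against 21.7, 21.9, 15.9 and 16.1 CPM in CTL. KO-443-3 and KO-453-7 were the high libraries, and the lowest, KO-453-6, was still far above the highest CTL library. *Cnn1* rose by 2.53 on the log2 scale (standard error 0.25, edgeR adjusted p = 0.000215), with a 95% interval of the fold from 3.84 to 8.74. Fitted alone, the KO-443 and WT-443 libraries gave 2.41 without passing (edgeR adjusted p = 0.0690, 2 libraries a group).

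*Cnn2* (chromosome 10, 79988584 to 79996062), the calponin of many nonmuscle cells as well as smooth muscle, had 247, 218, 219 and 259 CPM in NAE1CKO, against 90.7, 95.3, 105 and 113 CPM in CTL. The groups were well apart, and the spread within each was small. *Cnn2* rose by 1.22 on the log2 scale (standard error 0.081, edgeR adjusted p = 7.38e-07). The remaining calponin, *Cnn3*, known from brain and other nonmuscle tissue, had 119.1 ± 6.28 CPM in NAE1CKO and 104.6 ± 3.74 CPM in CTL (SD, n = 4 each). Its log2 fold change was 0.19 (standard error 0.055, edgeR adjusted p = 0.0195).

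The transgelins rose unequally. *Tagln* (ENSMUSG00000032085, chromosome 9, 45929619 to 45936058, minus strand), also known as SM22α and an early marker of smooth muscle and of the embryonic heart, had 300.1, 206, 221 and 295 CPM in NAE1CKO, against 61.1, 47.5, 54.9 and 58.1 CPM in CTL. As with *Cnn1*, KO-443-3 and KO-453-7 were the high libraries. *Tagln* rose by 2.21 on the log2 scale (standard error 0.14, edgeR adjusted p = 3.88e-06), with a 95% interval of the fold from 3.71 to 5.74. *Tagln2* (chromosome 1, 172500047 to 172507380), expressed widely outside smooth muscle, had 196, 178, 228 and 176 CPM in NAE1CKO, against 127, 121, 156 and 176 CPM in CTL. WT-453-5 was level with KO-453-7, and the groups overlapped there.

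The log2 fold change of *Tagln2* was 0.42 (standard error 0.13, edgeR adjusted p = 0.0264). Its call was lost without KO-443-3 (0.42, edgeR adjusted p = 0.0567), without KO-453-6 (0.34, edgeR adjusted p = 0.0586), without WT-443-7 (0.36, edgeR adjusted p = 0.0674) and without WT-443-8 (0.34, edgeR adjusted p = 0.0573), and with no filter on low counts (0.43, edgeR adjusted p = 0.0735). *Tagln3*, a transgelin of neurons, had 23 counts over the 4 NAE1CKO libraries and 28 over the 4 CTL libraries and was not tested.

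The NAE1CKO libraries did not order the genes alike. *Cnn1*, *Tagln* and *Cnn2* were highest in KO-443-3 and KO-453-7 and lower in KO-443-5 and KO-453-6. *Actb*, *Tagln2* and *Actg2* were highest in KO-453-6, the NAE1CKO library where *Acta2* was lowest. *Acta2* was highest in KO-443-5. The coefficient of variation among NAE1CKO libraries was 31.3% for *Cnn1* and 19.1% for *Tagln*, against 7.98% for *Acta2* and 8.69% for *Cnn2*.

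**Figure D3:**
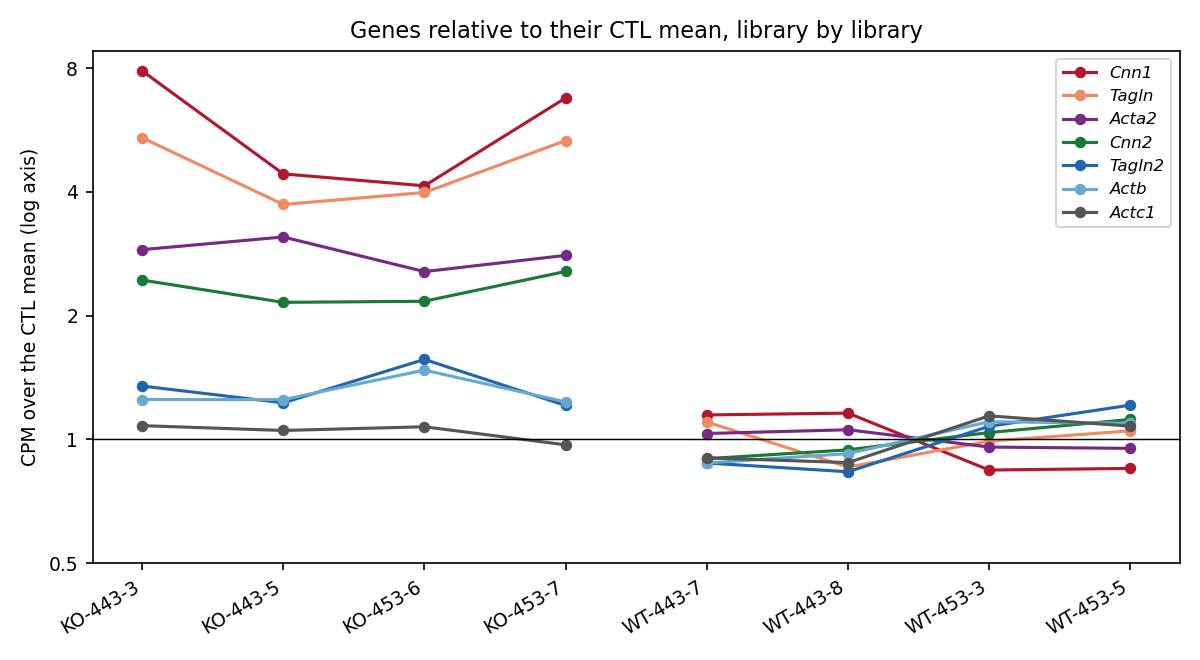
CPM of 7 genes in each library divided by the gene's CTL mean, on a log axis, NAE1CKO libraries left and CTL libraries right; lines join the values of one gene. *Cnn1* and *Tagln* dip in KO-443-5 and KO-453-6, while *Actb* and *Tagln2* peak in KO-453-6 and *Actc1* stays near 1.

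Levels of different genes were compared as CPM per kilobase of exon (GENCODE M21). In NAE1CKO the order of this level was *Actc1* (11826), *Acta2* (2232), *Actb* (475), *Tagln* (129), *Cnn2* (95.7), *Tagln2* (93.4), *Acta1* (53.9), *Cnn1* (40.04), *Actg2* (5.50) and *Actg1* (2.41). The libraries of neighbours overlapped for *Tagln* and *Cnn2*, for *Cnn2* and *Tagln2*, and for *Acta1* and *Cnn1*, so the order within these pairs is not settled. In CTL the order was *Actc1* (11326), *Acta2* (785), *Actb* (365), *Tagln2* (69.8), *Acta1* (46.7), *Cnn2* (41.0), *Tagln* (27.9), *Cnn1* (6.90), *Actg2* (3.64) and *Actg1* (1.90). Here the libraries overlapped for *Tagln2* and *Acta1* and for *Acta1* and *Cnn2*. *Tagln* thus lay among *Cnn2* and *Tagln2* in NAE1CKO and below both in CTL, while the first 3 places were the same in both groups. *Tagln* and *Actg1* share much of their sequence with other genes, as given above, so their places are less certain.

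The composition of the actin pool was taken as the share of each isoform in the summed counts of the 6 actin genes, which needs no scaling between libraries. *Acta2* made up 19.1%, 20.7%, 17.2% and 20.2% of actin reads in NAE1CKO, against 9.26%, 9.62%, 6.97% and 7.28% in CTL. *Actc1* made up 75.8%, 74.3%, 76.7% and 74.4% in NAE1CKO, against 85.9%, 85.1%, 88.2% and 87.6% in CTL. The groups were apart for both isoforms. The mean share of *Acta2* was 19.3 ± 1.54% in NAE1CKO and 8.28 ± 1.35% in CTL, and that of *Actc1* was 75.3 ± 1.17% in NAE1CKO and 86.7 ± 1.46% in CTL (SD, n = 4 each). For each of these 2 shares the two-sided exact permutation test gave p = 0.0286, the smallest that 4 against 4 libraries allow, and 0.0629 after Benjamini-Hochberg adjustment over the family of 11 shares and ratios. The shares are parts of one whole, so the lower *Actc1* share mirrors the higher *Acta2* share and is not a separate result. The mean level of *Actc1* itself was 19135 CPM in NAE1CKO and 18326 CPM in CTL.

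*Actb* took 5.01 ± 0.438% of actin reads in NAE1CKO and 4.63 ± 0.156% in CTL (exact permutation test, p = 0.171). *Acta1* took 0.324 ± 0.065% in NAE1CKO and 0.346 ± 0.098% in CTL (exact permutation test, p = 0.743). *Actg2* and *Actg1* each took under 0.05% in every library, with p = 0.143 and 0.971 by the exact permutation test. Per kilobase of exon, the mean share of *Acta2* was 15.3% in NAE1CKO and 6.36% in CTL, and that of *Actc1* was 81.0% in NAE1CKO and 90.3% in CTL.

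**Figure D4:**
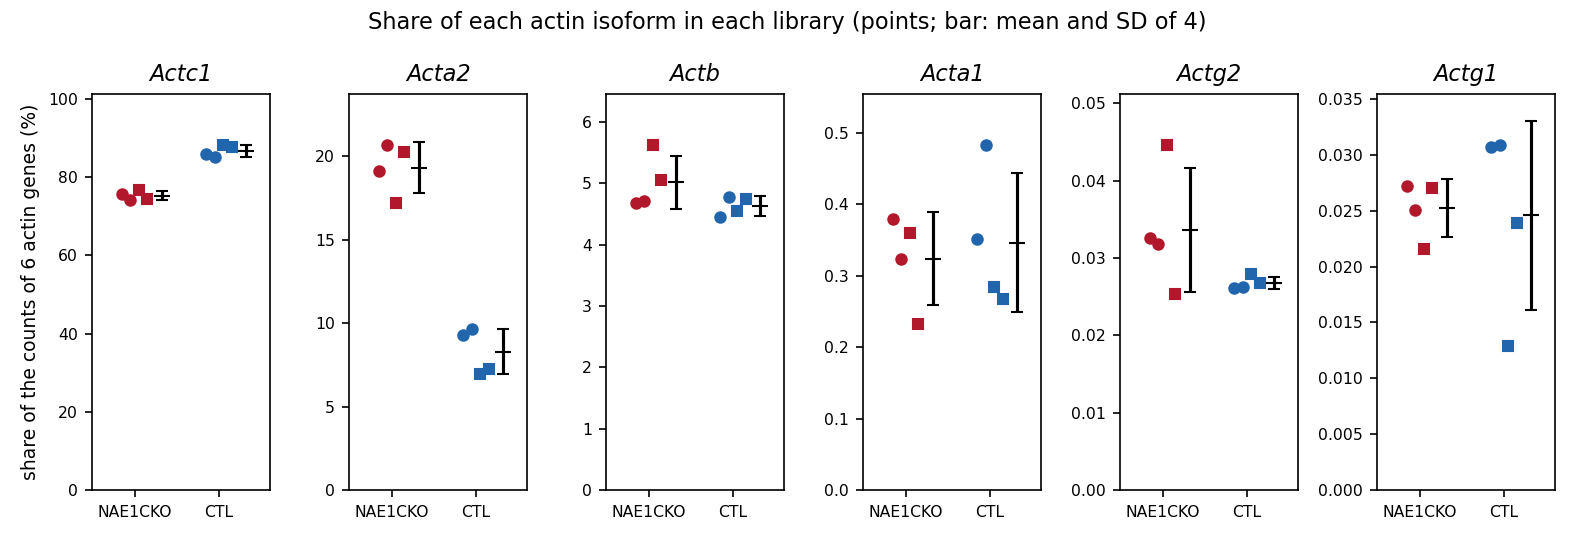
Share of each actin isoform in the counts of the 6 actin genes in each library, NAE1CKO left of CTL, with the mean and SD of 4 beside the points; each panel has its own axis from 0. *Acta2* lies between 17.2% and 20.7% in NAE1CKO and between 6.97% and 9.62% in CTL, *Actc1* is lower in NAE1CKO, and the other 4 isoforms overlap.

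The summed counts of the pool were also compared, without a test. The 6 actin genes together took 2.61 ± 0.097% of all counts in NAE1CKO and 2.05 ± 0.190% in CTL (SD, n = 4 each), with no overlap between the groups (2.48% to 2.70% in NAE1CKO and 1.90% to 2.32% in CTL). They summed to 25407 CPM in NAE1CKO and 21110 CPM in CTL. Of the difference of 4297 CPM, *Acta2* held 3176 CPM, *Actc1* 809.5 CPM and *Actb* 296 CPM. *Acta2* was also called with scaling factors taken without the 6 actin genes (log2 fold change 1.51).

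Ratios between paralogs were compared in the same family of 11. The ratio of *Acta2* to *Actc1* counts was 0.252, 0.278, 0.224 and 0.272 in NAE1CKO, against 0.108, 0.113, 0.0790 and 0.0831 in CTL. This ratio restates the contrast of their shares. The ratio of *Tagln2* to *Tagln* was 0.654, 0.864, 1.03 and 0.596 in NAE1CKO, against 2.09, 2.56, 2.85 and 3.03 in CTL. The ratio of *Cnn2* to *Cnn1* was 1.66, 2.61, 2.80 and 2.02 in NAE1CKO, against 4.19, 4.35, 6.60 and 7.04 in CTL. In each of these 3 ratios the groups did not overlap, and the exact permutation test gave p = 0.0286, or 0.0629 after adjustment. In NAE1CKO the smooth muscle member thus took a larger part of each of these pairs. The ratio of *Acta1* to *Actc1* (exact permutation test, p = 0.657) and that of *Actg1* to *Actb* (p = 1.0) overlapped between the groups. No share or ratio was under 0.05 after adjustment. With an exact permutation p no smaller than 0.0286, most of the family of 11 would have to reach it before any could pass. The lack of a pass is therefore not evidence of no difference.

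The genes that share the SRF and MRTF pathway with these 10 were counted from a list of 23 genes. In NAE1CKO, 16 were higher and 1 was lower, with a median log2 fold change of 0.55. The background for this list and those below is all genes tested, of which 18.6% were higher and 17.6% lower. *Csrp1*, a LIM protein of smooth muscle, had a log2 fold change of 1.02 (edgeR adjusted p under 0.05 here and for each gene called below). *Zyx*, zyxin of focal adhesions, had 0.78, *Fhl1*, another LIM protein, had 0.89, and *Vcl*, vinculin, had 0.55. *Srf* itself rose by 0.29 and *Mkl1*, the gene of MRTF-A, by 0.28. The values of *Tpm1* (0.04) and *Myocd*, the gene of myocardin (−0.05), did not pass. *Fhl2* was the member that fell, with −0.58.

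Among 16 smooth muscle contractile genes, 9 were higher and 2 lower, with a median of 0.42. This list shares *Myocd*, *Myl9*, *Tpm1*, *Csrp1* and *Flna* with the SRF and MRTF list. Some lists below share genes with other lists too, so the counts of the lists are not independent. *Tpm2*, β-tropomyosin, had a log2 fold change of 0.94, *Synpo2*, an actin-bundling protein, 1.14, and *Mcam*, a cell adhesion molecule, 0.996. The members that fell were *Myh11*, the smooth muscle myosin heavy chain (25.6 CPM in NAE1CKO and 31.7 CPM in CTL), and *Smtn*, smoothelin (88.1 CPM in NAE1CKO and 106.0 CPM in CTL). *Mylk*, the myosin light chain kinase, had 42.3 CPM in NAE1CKO and 41.7 CPM in CTL and did not pass.

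The smooth muscle and pericyte markers, a list without the 10 genes that shares 9 of its 16 members with the contractile list, did not rise together. Of 16 such markers 4 were higher and 5 lower, with a median log2 fold change of −0.01 and a summed level of 3390 to 3946 CPM in NAE1CKO and 3093 to 3268 CPM in CTL. Much of that sum was *Des*, desmin, which CMs also express (1818 CPM in NAE1CKO and 1401 CPM in CTL). Without it the sums overlapped, with 1758 to 1944 CPM in NAE1CKO and 1695 to 1815 CPM in CTL. That sum still held large moves in both directions. *Abcc9* had 380 CPM in NAE1CKO and 518 CPM in CTL, and *Mcam* had 358 CPM in NAE1CKO and 180 CPM in CTL. The overlap of the sums therefore depends on which genes are kept. *Pdgfrb* (0.03) and *Notch3* (0.13) did not pass, *Rgs5* was lower (−0.34) and *Cspg4* higher (0.73). Beside this stood a change in other cell type markers. Of 10 myofibroblast markers, 5 were higher and 1 lower, with a summed level of 2399 to 3056 CPM in NAE1CKO and 1862 to 2301 CPM in CTL. Of 10 fibroblast markers, 1 was higher and 5 lower (3185 to 3696 CPM in NAE1CKO and 3549 to 4243 CPM in CTL). Of 14 macrophage markers 13 were higher (207 to 282 CPM in NAE1CKO and 140 to 146 CPM in CTL). The part of these cell types in the levels of the 10 genes was not tested.

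**Figure D5:**
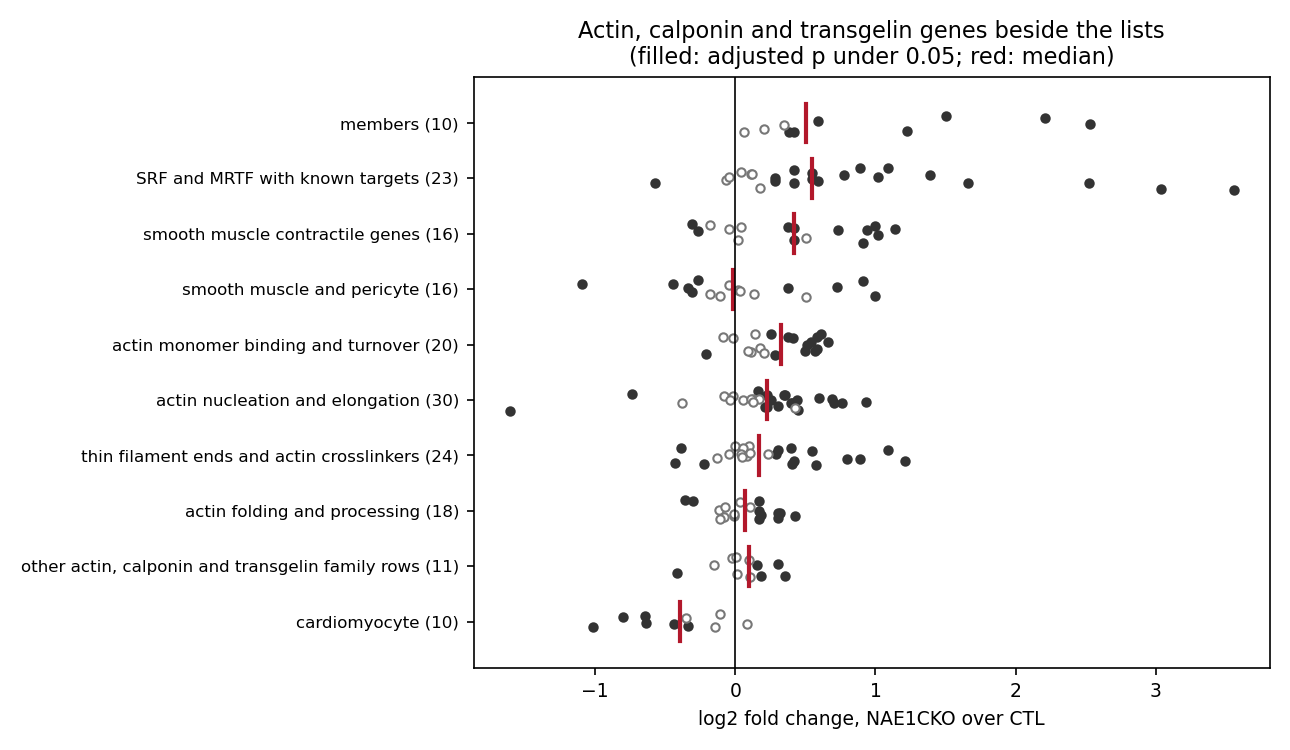
Log2 fold change, NAE1CKO over CTL, of the 10 genes and of the tested members of each list (number in parentheses), filled where the edgeR adjusted p was under 0.05, with the median in red. The SRF and MRTF list has the highest median of the lists drawn (0.55), the smooth muscle and pericyte markers lie on both sides of 0, and the cardiomyocyte markers lie mostly below 0.

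Most genes for the proteins that supply and recycle actin monomers were higher as well. Of 20 tested genes for monomer binding and turnover, 12 were higher and 1 lower, with a median of 0.33. *Tmsb4x*, thymosin β4, which sequesters monomers, had a log2 fold change of 0.54, *Pfn2*, profilin, 0.66, *Coro1c*, coronin, 0.58, and *Limk2*, a kinase that inactivates cofilin, 0.58. *Gsn*, gelsolin, was lower (−0.21). *Dstn*, destrin, had 422 CPM in NAE1CKO and 391 CPM in CTL and did not pass, like *Cap2* with 260.0 CPM in NAE1CKO and 263 CPM in CTL. With a fold above 1.5, 2 of the 20 were higher, beside 7.31% of all genes.

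Of 30 genes for nucleation and elongation, 18 were higher and 2 lower, with a median of 0.22. Over all genes tested, 18.6% were higher and 17.6% lower. *Enah*, a filament elongation factor, had a log2 fold change of 0.70, *Cttn*, cortactin, 0.69, and *Arpc5* and *Arpc2*, subunits of the Arp2/3 complex, 0.60 and 0.45. The formins *Fhod3*, which acts in CM sarcomeres (−0.73), and *Fmn2* (−1.61) were the members that fell.

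Of 24 tested thin filament end and crosslinker genes, 11 were higher and 3 lower, with a median of 0.17. The nonmuscle α-actinins *Actn1* and *Actn4* had log2 fold changes of 1.21 and 0.80, the filamin *Flnc* had 0.89 and *Tln1*, talin, had 0.57. *Actn2*, the α-actinin of the CM Z-disc, had 3831 CPM in NAE1CKO and 3611 CPM in CTL and did not pass, nor did *Plec*, plectin, with 725 CPM in NAE1CKO and 700.1 CPM in CTL. The members that fell were *Nebl*, *Tln2* and *Tmod1*, which encode nebulette, a talin of striated muscle and a pointed-end cap.

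Of 18 genes that fold and process actin, 8 were higher and 2 lower, with a median of 0.07, and each called change was below 1.5-fold. The chaperonin subunits *Cct8* (0.43), *Cct6a* (0.30) and *Cct3* (0.32) were higher, while *Unc45b*, a myosin chaperone of striated muscle, was lower (−0.36). Of 11 tested rows of the wider actin, calponin and transgelin families, 4 were higher and 1 lower, with a median of 0.10. The actin-related proteins *Actr2* (0.35) and *Actr3* (0.30) were higher and *Actr3b* lower (−0.42). The table's actin pseudogene *Actg-ps1* had 1 count over all libraries and the actin-like gene *Actbl2* had 2.

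The promoters of the genes were searched for the SRF site, since so many of the 10 are known SRF targets. RefSeq promoters on GRCm38.p6 run from 250 bases before to 50 bases after the start that RefSeq gives. They were matched for 7 of the 10 genes by symbol, and *Actb*, *Actg2* and *Tagln* were not matched. Distances below are from that RefSeq start, which can differ from the GENCODE positions above. The stretches shown for *Actc1* and *Acta2* lie wholly inside those GENCODE positions. The CArG box is CC, then a run of A or T letters, then GG, with 10 letters in all. A match to this pattern on one strand is also a match on the other, though its letters can differ. A looser form allows 1 C or G in its core and includes the strict form. The strict form was found in *Actc1*, *Acta1*, *Cnn2* and *Actg1*, and in 1.63% of 32851 promoters. The looser form was found also in *Acta2*, and in 9.98% of promoters. Neither was found in this window of *Cnn1* or *Tagln2*. The stretches that hold the boxes nearest the start are shown for *Acta2* and *Cnn2*, which rose, and for *Actc1* and *Acta1*, which did not pass. Capitals mark each match of either form.
Acta2 (chr19:34255374-34255493, minus strand): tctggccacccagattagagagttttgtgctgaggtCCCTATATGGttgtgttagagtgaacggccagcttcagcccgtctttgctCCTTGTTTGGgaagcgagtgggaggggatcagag
Cnn2 (chr10:79988480-79988599, plus strand): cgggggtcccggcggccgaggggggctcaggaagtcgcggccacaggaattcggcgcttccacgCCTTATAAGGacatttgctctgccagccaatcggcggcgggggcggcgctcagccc
Actc1 (chr2:114052876-114052995, minus strand): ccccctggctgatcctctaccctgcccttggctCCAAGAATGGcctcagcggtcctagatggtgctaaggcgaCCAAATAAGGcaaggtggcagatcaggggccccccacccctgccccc
Acta1 (chr8:123894776-123894895, minus strand): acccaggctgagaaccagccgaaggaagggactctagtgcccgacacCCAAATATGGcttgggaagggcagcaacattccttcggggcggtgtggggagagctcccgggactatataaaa
The strict box began 56 bases before the start in *Cnn2*, 47 in *Actc1*, 73 in *Acta1* and 90 in *Actg1*, and the looser boxes of *Acta2* began 84 and 34 bases before it. The box was thus present both in genes that rose and in genes that did not pass. A match is a description of the letters, and binding was not measured here.

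The genes whose log2 CPM ran most like that of *Acta2* over the 8 libraries were *Sv2b*, *Atp6v1b2* and *Mest*, with Pearson r from 0.995 to 0.997. Those most like *Cnn1* were *Marveld1*, *Adk* and *Qsox1* (r = 0.99 each). The libraries fall into 2 groups and share their scaling, so a gene that differs between the groups scores high with any other such gene, and r is given as a description.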

How the data were processed

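Ventricular polyadenylated RNA of 4 NAE1CKO and 4 CTL mice was sequenced, 1 library each, and none of the 8 was left out. The deposited values are raw read counts per gene, which the authors made with STAR 2.0.4b for alignment, featureCounts 1.4.5 (Subread) for counting and bcl2fastq, as listed in the submitters' processing notes. No source used here states the build, the annotation or the strand option. The table has 41264 lines for 40690 genes, and 574 lines repeat a gene. Groups came from the genotype labels. Where nothing says that libraries come from separate litters, p-values measure the spread between these libraries.

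Counts were filtered with filterByExpr (minimum count 10), scaled by TMM and tested with edgeR 4.0.16 in R 4.3.3 (quasi-likelihood, robust, Benjamini-Hochberg), after a check on simulated counts. DESeq2 1.42.0 and limma-voom (limma 3.58.1) were alternatives, beside other scalings, filters and thresholds, the title number as a block or alone, and leaving out each library. Fits without *Gm42418* and with scaling that leaves out the 6 actin genes were added after seeing the data. So was a comparison of the shares and ratios without KO-453-6 and WT-453-5, which had no test and is not reported here. For shares and ratios, exact permutation tests (two-sided) over libraries were used. GENCODE M21 (GRCm38) gave positions, lengths and transcripts, and RefSeq the promoters.

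The members and gene lists were chosen with earlier results of these data known. Each list names up to 4 called genes with the smallest adjusted p and up to 2 uncalled genes with the highest mean CPM, and genes named beyond that, the members that fell and *Srf*, *Mkl1*, *Mylk*, *Myh6* and *Tnni3* among them, were chosen after their values were seen. Part of what the naming rule takes is not reported here.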

Additional observations from a re-analysis of the deposited data

Results flagged for a closer look

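Among 42 groups of 4 values examined (CPM, shares and ratios of the 10 genes in each group), 1 held a library far from the other 3, where about 2.1 would be flagged by chance. It was *Actb* in NAE1CKO, where KO-453-6 had 1441.73 CPM and the other NAE1CKO libraries 1207 to 1223 CPM, with the gap to the nearest making up 0.931 of the range. Without KO-453-6, *Actb* had a log2 fold change of 0.32 (edgeR adjusted p = 0.0142) and kept its call.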

How the results depend on the processing

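Of the 10 genes, *Acta2*, *Cnn2* and *Tagln* were called in 24 of 24 alternative settings (edgeR, and DESeq2 or limma-voom in 1 fit each). *Cnn1* was called in 23, *Actb* in 22, *Actg2* in 19, *Tagln2* in 16 and *Actc1* in 1, with *Acta1* and *Actg1* called in 0. The settings with an adjusted p under 0.01 or a fold above 1.5 apply a stricter threshold to the main fit. There *Actg2* was lost at the first, *Actb* at the second and *Tagln2* at both. Every fit kept the 7 called genes above 0. Leaving out each library in turn, 5 to 7 of the 10 were higher, and over all genes 2216 to 2478 were higher and 2051 to 2236 lower. In the KO-453 and WT-453 libraries alone, with 2 libraries a group, *Actg2*, *Actb* and *Tagln2* did not pass (edgeR adjusted p = 0.326, 0.0677 and 0.184). The part of the smaller number of libraries in this loss was not tested. Over all genes, library size alone gave 3177 higher and 1532 lower, with 67.5% of calls higher against 51.4% under TMM, an adjusted p under 0.01 gave 1729 higher and 1486 lower, and a fold above 1.5 gave 996 higher and 758 lower. The cause of the shift under library size was not tested. Counts of list genes also moved over the 24 settings. Higher genes ran from 10 to 16 in the SRF and MRTF list and from 6 to 9 in the contractile list. They ran from 2 to 14 for monomer binding, 5 to 18 for nucleation, 4 to 12 for crosslinkers and 0 to 8 for folding. With the title number as a block, the same 7 genes were called (*Acta2* 1.51, *Cnn1* 2.55, *Tagln2* 0.43), and 2794 genes were higher and 2713 lower. The labels do not say that the number pairs the mice, and the difference between the numbers correlated at r = 0.186 across 13622 genes, which are not independent, between the groups. Leaving out each library, the difference in share ran from 10.6 to 11.7 percentage points for *Acta2* and from −11.9 to −10.9 for *Actc1*. With 4 libraries a group, the exact permutation test of a share or ratio could not fall below p = 0.0286, and *Actg1* and *Actg2* are limited by their low counts.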
